A study of Rattus norvegicus with 4 samples.

Results

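The comparison set the fracture callus of streptozotocin-diabetic rats on day 5 after fracture against the callus of control rats on the same day. Its members are 2 of the 4 arrays of the series, chosen by their titles: the diabetic array and the control array of day 5. All animals were male Sprague–Dawley rats of 12 weeks with a closed transverse fracture of the right femoral shaft held by an intramedullary wire, a fixation that both groups share. Diabetic rats had been given streptozotocin intravenously, once, at 40 mg/kg, and had a blood glucose over 300 mg/dl, and control rats had received sodium chloride and had a normal blood glucose. Streptozotocin diabetes is a model of insulin deficiency, and the labels name no insulin treatment in either group. Callus of 5 animals was pooled for each array, so each group is 1 measurement that does not show the spread between animals. The design gives no estimate of replicate error, and differences are described by their size without a p-value.

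Callus is the tissue that bridges a broken bone during repair. A clot and an inflammatory reaction come first, periosteal progenitor cells then multiply and form cartilage and, close to the cortex, bone, and the cartilage later becomes mineralised, is resorbed and is replaced by bone. Impaired healing in diabetes is known from less cartilage and bone in the callus, an altered inflammatory phase and early removal of cartilage by osteoclasts. The comparison asks which transcripts differ in the early callus when healing is impaired. Because callus is a mixture of cells, a lower signal can stand for fewer cells of a type or for less RNA per cell, and these cannot be told apart here.

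The array files identify gene probes by Ensembl gene ID alone. None of the 20174 IDs could be paired with a symbol through the reference table, in which 0 of 47357 genes carry an Ensembl ID. Gene names, the 29 marker and pathway lists and the sequences of genes were therefore not used, and the tissue label could not be checked against its markers. At most 2 IDs are given for each direction, and other genes are described by their values and rank.

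Values are scaled net signals: the median brightness of a spot minus the blank-spot level of its array, scaled so that the genes above the detection limit of an array have a median of 25. The limit lies 2 SD over the blank-spot mean, which corresponds to a scaled signal of 0.957 on the diabetic and 0.813 on the control array. A signal can be compared between arrays for 1 probe, but not between probes. On day 5, 16067 genes (79.6%) were above the limit in diabetic and 16384 (81.2%) in control callus. Both arrays measured 15408 genes, 659 were above the limit in diabetic callus only and 976 in control callus only, and 3131 were above it on neither array. The limit is a low bar: 66.7% of 96 negative control spots exceeded it on the diabetic and 55.2% on the control array. Their signals reached 3.24 on the diabetic and 3.34 on the control array. Other spots without a gene probe went higher. The highest blank spot had 7.75 on the diabetic and 6.31 on the control array. The highest spot marked as having no probe had 12.5 on the diabetic and 15.2 on the control array.

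By ratio of the scaled net signals, the largest differences on day 5 were losses of signal in diabetic callus. Of the 15408 genes measured on both arrays, 1289 were at least 2-fold apart, which is 8.37% of them: 495 (3.21%) were higher and 794 (5.15%) lower in diabetic callus. These counts depend on the processing: they were 91 higher and 164 lower (1.65% of genes in all) with normexp and an offset of 50, 130 and 173 (1.97%) with a pseudocount of 25, and 2231 and 1856 (27.4%) with the local background column subtracted. The excess of lower genes grew with the size of the difference up to 8-fold. Past 4-fold there were 56 higher and 138 lower genes, past 8-fold 7 higher and 43 lower, and past 16-fold 3 higher and 18 lower. Past 32-fold there were 2 higher and 10 lower genes, and past 64-fold 0 higher and 5 lower. Higher genes thus made up 38.4% of the differences past 2-fold but only 7 of the 50 past 8-fold. The share of higher genes among those past 2-fold was 26.1% with a limit set on negative control spots and 54.6% with the local background column subtracted. That setting, which gave 615 higher and 325 lower genes past 4-fold, was the one in which higher genes prevailed. Among the leading genes described below, the most extreme log2 ratios were -5.10 and 5.43 with normexp. They were -5.09 and 5.67 with the pseudocount, and -6.63 and 6.83 with the local background column. In these settings the largest difference among them was thus a gain in diabetic callus. Most genes differed little: 76.4% were within 1.5-fold, the middle 50% of log2 ratios lay between -0.30 and 0.30, and the median log2 ratio of diabetic over control was 0.03.

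ENSRNOG00000030093 had the largest negative log2 ratio among the brighter genes. Its scaled net signal was 4.68 in diabetic and 986.4 in control callus on day 5, a log2 ratio of -7.72 or 211-fold lower in diabetic callus. The diabetic value is dim, against a detection limit of 0.957 and a highest blank spot of 7.75 on that array. With a pseudocount of 25 added to both values the log2 ratio was -5.09. ENSRNOG00000008394 behaved alike, with 5.14 in diabetic and 845.1 in control callus and a log2 ratio of -7.36. On day 11 both genes were again lower in diabetic callus, at 2.68 against 74.8 in control callus for ENSRNOG00000030093 (log2 ratio -4.80) and at 9.27 against 68.3 in control callus for ENSRNOG00000008394 (log2 ratio -2.88). The brighter signal of both genes was that of control callus on day 5.

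ENSRNOG00000000545 had the largest positive log2 ratio among the brighter genes. Its scaled net signal was 307.4 in diabetic and 4.90 in control callus on day 5, a log2 ratio of 5.97 or 62.7-fold. Here the control value is the dim one, against a detection limit of 0.813 and a highest blank spot of 6.31 on that array. With the same pseudocount the log2 ratio was 3.47. On day 11 the gene stood at 6601 in diabetic and 7.56 in control callus. ENSRNOG00000022282 differed as much from a brighter base, with 8353 in diabetic and 139.4 in control callus on day 5 and a log2 ratio of 5.91, which was 5.67 with that pseudocount. On day 11 it had 31738 in diabetic and 520.5 in control callus, with a log2 ratio of 5.93.

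**Figure D1:**
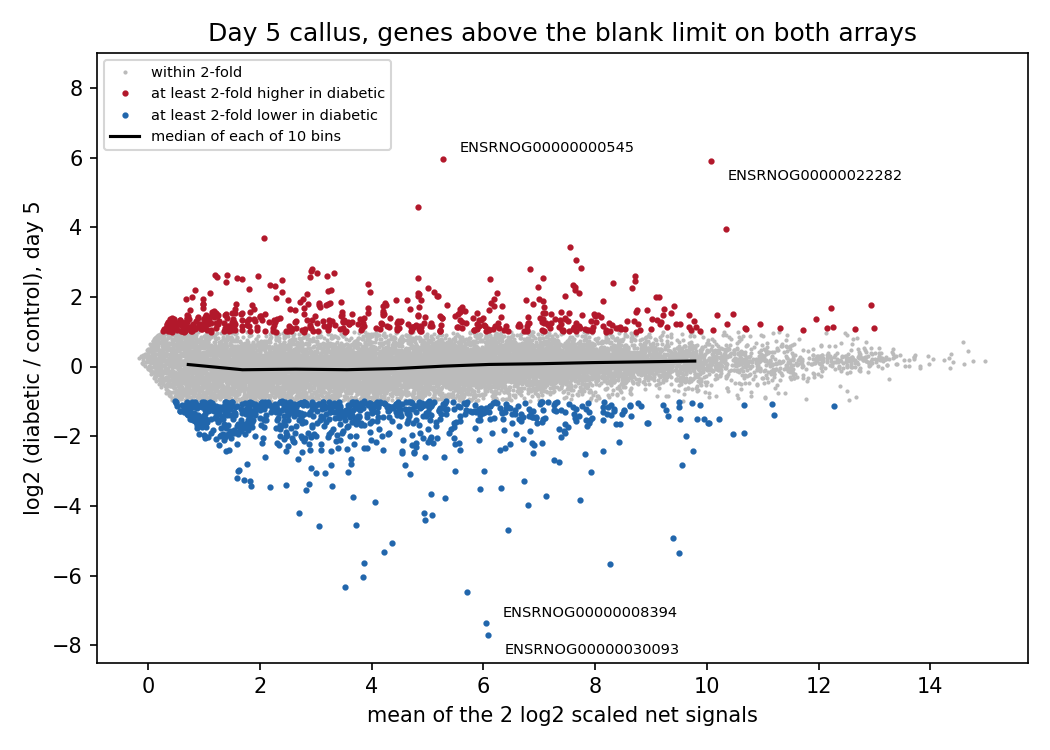
Log2 ratio of diabetic over control callus on day 5 (y axis) against the mean of the 2 log2 scaled net signals (x axis) for the 15408 genes above the limit on both arrays; each point is a gene, and the black line joins the medians of 10 equal bins of genes ordered by signal. Lower genes (blue, 794) outnumber higher genes (red, 495) and reach down to -7.72, while the higher genes end at 5.97.

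The 15 leading genes in each direction were those with the most extreme log2 ratios among the 7704 brighter genes. The 15 lower genes were 12.7 to 211-fold lower in diabetic callus, and the 15 higher genes were 4.82 to 62.7-fold higher. For the lower genes the scaled net signals were 4.68 to 121.1 (median 10.8) in diabetic and 120.1 to 4602 (median 493.8) in control callus. In 9 of the 15 lower genes the diabetic signal was under 25, the median of all genes above the limit. That none had such a signal in control callus was fixed by the choice of genes by mean signal and ratio. For the higher genes the signals were 165.7 to 8353 (median 569.2) in diabetic and 4.90 to 329.8 (median 80.6) in control callus, and 1 of them had a control signal under 25. The leading lower genes were thus mostly dim in diabetic callus, while all but 1 of the leading higher genes had a control signal above that median. Both sets had to pass the same mean signal, so the larger ratios of the lower genes leave room for a dimmer value on 1 array.

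The arrays of day 11 come from other animals and other pools, share no array with day 5, and measure the same contrast later in repair. Of the 15 leading higher genes of day 5, 13 were higher in diabetic callus on day 11 as well and 11 at least 2-fold. Of the 15 leading lower genes, 14 were lower on day 11 and 12 at least 2-fold. Among the higher genes 8 had a larger log2 ratio on day 11 than on day 5, and among the lower genes 4 did in size. The gene ranked 4 among the higher genes had 617.9 in diabetic and 56.9 in control callus on day 5, while day 11 gave 9702 in diabetic and 105.7 in control callus. The gene ranked 7 had 300.3 in diabetic and 43.2 in control callus on day 5, while day 11 gave 2342 in diabetic and 16.1 in control callus. Diabetic callus was thus 10.9-fold higher on day 5 and 91.8-fold on day 11 for the first of these genes, and 6.95-fold on day 5 and 145-fold on day 11 for the other. The gene ranked 5 among the lower genes was about equally low on both days, with 112.9 in diabetic and 4602 in control callus on day 5, while day 11 gave 74.4 in diabetic and 4303 in control callus.

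A few leading differences were past 2-fold on day 5 only. The gene ranked 6 among the lower genes had 121.1 in diabetic and 3701 in control callus on day 5, a log2 ratio of -4.93. Day 11 gave 3768 in diabetic and 3866 in control callus, a log2 ratio of -0.04. The gene ranked 10 among them followed the same course at a lower signal, with 7.18 in diabetic and 132.6 in control callus on day 5, while day 11 gave 132.9 in diabetic and 123.5 in control callus. In both genes the diabetic signal of day 5 is the single low value of 4. Among the higher genes, the gene ranked 12 had 740.7 in diabetic and 139.7 in control callus on day 5, while day 11 gave 167.3 in diabetic and 230.4 in control callus. Here the diabetic signal of day 5 is the single high value. The gene ranked 9 had 321.3 in diabetic and 55.7 in control callus on day 5, while day 11 gave 325.2 in diabetic and 241.6 in control callus, so that the control signal of day 5 is the single low value. These genes were picked out by rank after their values had been seen. With the local background column subtracted, the lower gene ranked 6 had no value on day 5. In that setting the lower gene ranked 10 had a log2 ratio of -1.99 on day 5. The higher genes ranked 12 and 9 had 1.91 and 3.46 there.

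**Figure D2:**
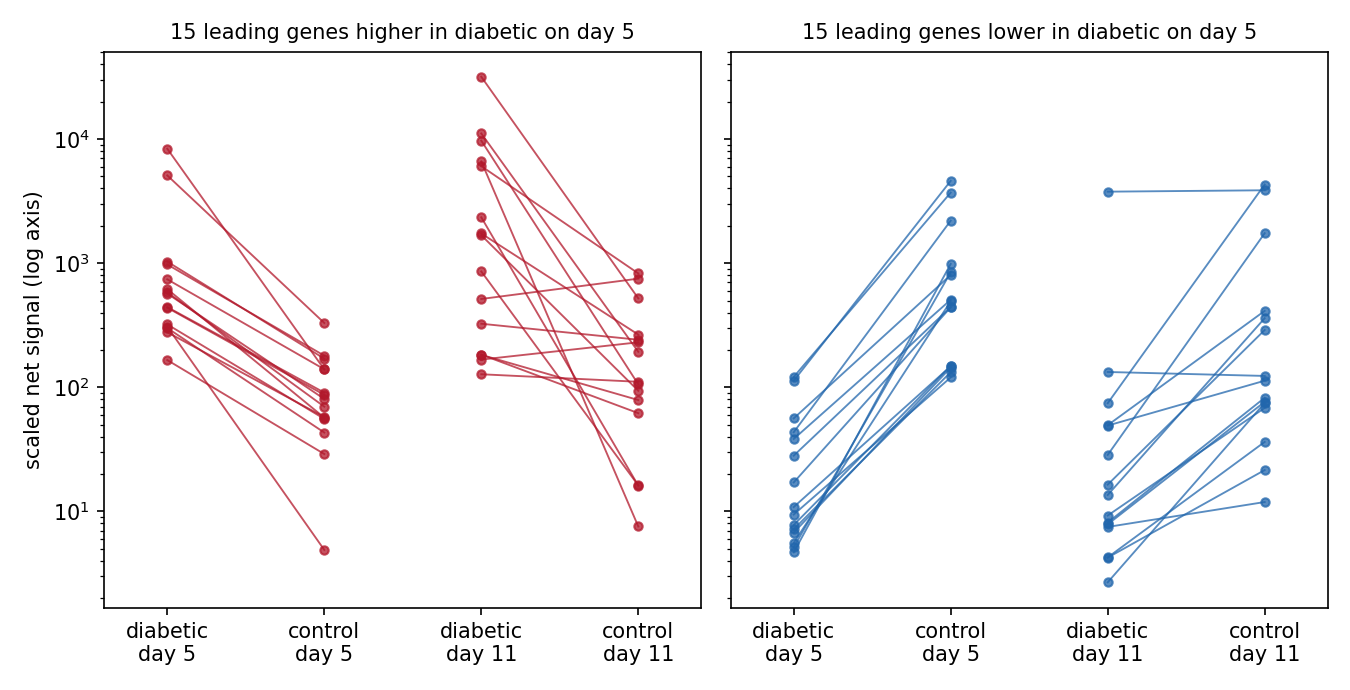
Scaled net signal (y axis, log scale) of the 15 leading higher genes (left panel) and the 15 leading lower genes (right panel) of day 5 on the 4 arrays (x axis, diabetic before control within each day); each line joins the diabetic and control signals of 1 gene on 1 day. The lines of day 5 slope one way by the choice of genes, and those of day 11 slope the same way for 13 of 15 higher and 14 of 15 lower genes.

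The same view was taken of all differences past 2-fold. Of 14682 genes above the limit on all 4 arrays, 8.02% were past 2-fold upward and 7.07% past 2-fold downward in diabetic callus on day 11. Of the 446 such genes that were at least 2-fold higher on day 5, 389 (87.2%) were higher on day 11 and 270 (60.5%) at least 2-fold. Of the 749 that had been at least 2-fold lower, 632 (84.4%) were lower on day 11 and 400 (53.4%) at least 2-fold. Among genes 1.5 to 2-fold apart on day 5, the direction was the same on day 11 for 82.5% of 1053 higher and 72.0% of 1123 lower genes. Over all 14682 genes 54.5% had a log2 ratio above 0 on day 11 and 45.5% one below 0.

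The share past 2-fold again on day 11 followed the size of the day 5 difference. At least 2-fold in the same direction on day 11 were 58.5% of 395 genes that were 2 to 4-fold higher on day 5, 72.7% of 44 genes that were 4 to 8-fold higher, and all 7 that were at least 8-fold higher. For lower genes the shares were 48.8% of 625, 74.4% of 86 and 81.6% of 38. The same direction at any size did not follow the size in this way for higher genes, at 87.3%, 84.1% and 100%. For lower genes it was found for 82.4%, 93.0% and 97.4%. The median log2 ratio on day 11 was 1.23, 2.24 and 6.52 for these classes of higher genes and -0.97, -1.83 and -3.08 for those of lower genes.

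The share was lowest in the dimmest of 4 equal bins of genes ordered by signal. Past 2-fold in the same direction on day 11 were, from the dimmest bin to the brightest, 40.6%, 68.2%, 64.1% and 74.2% of the genes higher on day 5, of which the bins held 138, 110, 78 and 120. For genes lower on day 5 the shares were 42.0%, 55.2%, 64.3% and 63.4%, of 255, 261, 140 and 93 genes. The same direction at any size was found for 73.7%, 90.8%, 91.4% and 84.9% of the lower genes. Back within 1.5-fold on day 11 were 110 of the 446 higher and 192 of the 749 lower genes. With the local background column in place of the blank level, 57.6% of the higher and 54.1% of the lower genes of day 5 had the same direction on day 11. The agreement between the days thus depends on the background used.

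**Figure D3:**
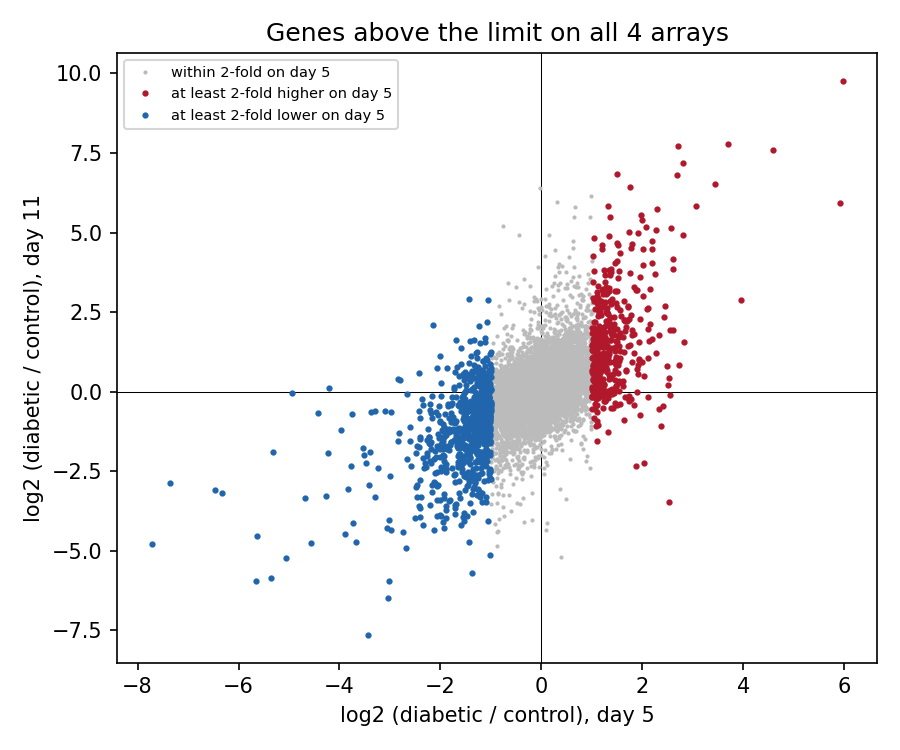
Log2 ratio of diabetic over control callus on day 11 (y axis) against that on day 5 (x axis) for the 14682 genes above the limit on all 4 arrays; each point is a gene. Among genes past 2-fold on day 5, 87.2% of the higher ones (red) lie above 0 on day 11 and 84.4% of the lower ones (blue) below 0.

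The balance of higher and lower genes changed with the signal. The genes were ordered by signal and divided into 10 equal bins. In the dimmer 7704 genes 297 were past 2-fold upward and 561 downward in diabetic callus, and in the brighter 7704 genes 198 were higher and 233 lower. In the brightest bin, with a median signal of 882, 48 genes were higher and 28 lower. In the second dimmest bin, with a median signal of 3.23, 61 were higher and 137 lower, while the dimmest bin, with a median signal of 1.65, held 100 higher and 99 lower genes. The median log2 ratio was 0.06 in the dimmest bin, -0.09 in the next and 0.16 in the brightest. The scatter narrowed with signal: the interquartile range of the log2 ratios was 0.87 in the dimmest bin and 0.39 in the brightest, and the share of genes past 2-fold was 12.9% and 4.93%. Subtracting a lowess curve of the log2 ratio on signal, a setting chosen after seeing the data, left 470 genes higher and 762 lower.

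**Figure D4:**
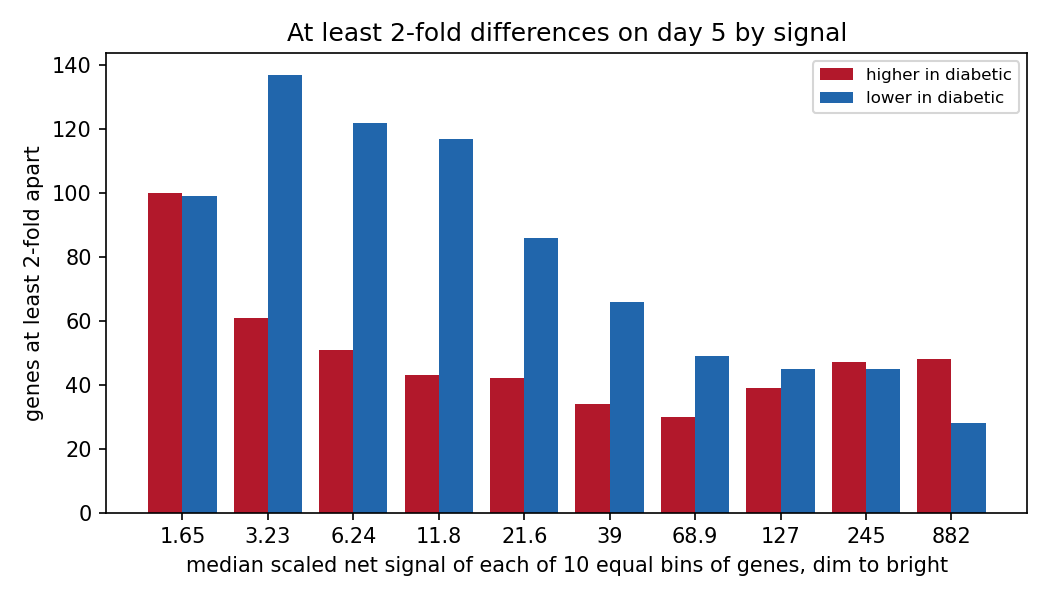
Number of genes at least 2-fold higher (red) or lower (blue) in diabetic than in control callus on day 5 (y axis) in 10 equal bins of the 15408 genes ordered by signal (x axis, median scaled net signal of each bin). Lower genes prevail in bins 2 to 8, counted from the dimmest, and in the brightest bin 48 genes are higher and 28 lower.

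Spots other than gene probes show how far ratios spread between spots of the same 2 arrays. They do not measure the error between animals, pools or labelling reactions. The log2 ratio of diabetic over control at 24 matched spots of 1 positive control probe had a mean of 0.20 with an SD of 0.10, and that of the second such probe, likewise at 24 spots, a mean of 0.19 with an SD of 0.30. In this second probe 1 spot had a log2 ratio of 1.48, and the SD of the other 23 was 0.13. The median signals of these probes were between 6869 and 8862, far above the median of 882 of the brightest bin of genes, and the repeats hold none of the error of separate animals, pools or labelling reactions. At the dim end, matched spots above the limit on both arrays had log2 ratios with an SD of 0.57 for the first kind of negative control (21 spots) and of 0.70 for spots marked as having no probe (103 spots). Past 2-fold were 14.3% of these negative control spots and 17.5% of the no-probe spots (16 upward and 2 downward). In the dimmest bin of genes the share was 12.9%. It was 0% of 11 spots for the third negative control, 11.1% of 9 for the fourth and 6.67% of 120 blank spots. The mean log2 ratios of the positive controls are close to the median of 0.16 of the brightest bin of genes. Of 345 QC probes above the limit on both arrays, 19 were past 2-fold upward and 7 downward, or 7.54%, beside 8.37% of genes, and the SD of their log2 ratios was 0.54. The signals differ, since the median over all 521 QC spots was 3.42 on the diabetic and 3.22 on the control array. In the bin of genes with a median signal of 3.23, 12.8% were past 2-fold. The median log2 ratio of genes by print block, the groups in which the spots are laid out, ran from -0.05 in block 5 to 0.19 in block 1, and was within 0.1 of 0 in 21 of 24 blocks. With every block median set to 0, a setting also chosen after seeing the data, 460 genes were higher and 834 lower.

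Genes above the limit on 1 array only have a bound in place of a ratio, taken against the higher of the lowest signal above the limit on the dim array and the gene's own signal there. Most were dim, with a median signal of 1.32 for genes seen in diabetic callus only and 1.21 for those seen in control callus only. These medians lie within the range of negative control spots, which reached 3.24 on the diabetic and 3.34 on the control array. Of the 659 genes seen in diabetic callus only, 137 were at least 2-fold higher by this bound and 8 at least 4-fold. Of the 976 genes seen in control callus only, the bound was at least 2-fold for 163, 4-fold for 35 and 8-fold for 16, all lower in diabetic callus. The gene with the largest bound had a signal of 78.5 in control callus and was not above the limit in diabetic callus, at least 81.4-fold lower there. On day 11 it was again not above the limit in diabetic callus and had a signal of 5.80 in control callus. The largest bound in the other direction was 7.60-fold higher, for a gene with 6.25 in diabetic callus, which on day 11 had 23.4 in diabetic and 5.19 in control callus. Its 6.25 lies below the highest blank spot of the diabetic array of day 5, at 7.75. The count of 137 depends on the limit: it was 25 with a limit on negative control spots and 55 with an untrimmed blank level, while the count of lower genes was 122 and 132.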

How the data were processed

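Callus RNA of 5 pooled animals per group was amplified to amino allyl aRNA, coupled to Cy5 and hybridised to 1 array per group, per the labels' protocols. Per the file headers, the deposited array files give for each of 27456 spots a median intensity at 635 nm, a local background intensity and flags at 3 scanner gains. The sources used here do not name the scanner, its software or the annotation. The authors also deposited a table of intensity values on a linear scale, whose scale and centring were found by comparison: it equals the spot median less the mean of the blanks (5% trimmed from each tail), times 1 factor per array that sets its median to 25. Values recomputed this way were within 0.249% of the table for genes at 25 or more, and 1 gene of the table on the day 5 control array and 9 on that of day 11 lay under the recomputed limit.

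Values were recomputed from the spot medians in Python 3.11.15. A gene counted as measured above the blank mean plus 2 SD with no bad flag. With 1 array per group genes were described by log2 ratio, and called at 2-fold, with no test. The steps were tested on simulated data. The brighter genes are those whose mean log2 value is at or above the median of genes measured on both arrays; the leading genes were the 15 most extreme of these in each direction with the same direction after normexp (limma 3.58.1, R 4.3.3, offset 50) and quantile normalization. The rule for named genes asked for a symbol, which could not be met, so 2 IDs per direction are printed and the parts of the rule on list members could not be applied; genes given by rank alone were chosen after their values were seen. The members, lists and rules were chosen with earlier results of these data known. The number of arrays limits the precision.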

Additional observations from a re-analysis of the deposited data

Results flagged for a closer look

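Some differences between diabetic and control callus had opposite directions on day 5 and day 11. Reversals with both days past 2-fold were counted among genes above the limit on all 4 arrays. They were found for 8 of the 446 higher genes of day 5 and for 20 of the 749 lower genes. Among all 14682 such genes, 7.07% were past 2-fold downward on day 11 and 8.02% upward. Reversals were thus rarer among the genes called on day 5 than differences in those directions were among all genes. Among the 7704 genes in the brighter part by their day 5 signals the reversals were 2 and 9 genes. Among the leading genes of day 5, the higher gene ranked 12 had a log2 ratio of -0.46 on day 11, the higher gene ranked 13 of -0.54, and the lower gene ranked 10 of 0.11. With 1 array per group the difference between the days was not tested.

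Signal above the blank-spot limit was also found on spots used in no comparison of genes, where 6.85% of blank spots on the diabetic and 7.21% on the control array of day 5 exceeded it. The 4 kinds of negative control spot, with 24 spots each, differed among themselves: 95.8% of spots in diabetic and 91.7% in control callus exceeded the limit for the first, 16.7% and 16.7% for the second, 91.7% and 54.2% for the third, and 62.5% and 58.3% for the fourth. The median scaled signal of the third was 1.64 on the diabetic and 0.934 on the control array, and no negative control spot exceeded 3.34 on either array. The share was 30.4% in diabetic and 32.3% in control callus for the 809 spots marked as having no probe, and 70.2% and 71.8% for the 521 QC probes.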

How the results depend on the processing

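Results were recomputed under 11 other settings, of which the untrimmed blank level, the print block medians and the lowess curve were chosen after seeing the data. The counts of 495 higher and 794 lower genes on day 5 stayed within 1.5 times with the authors' deposited table, quantile normalized net signals, the median log2 ratio set to 0 and these 3 added settings, at 421 to 523 higher and 707 to 837 lower. They were 91 and 164 with normexp and an offset, 130 and 173 with a pseudocount of 25, 198 and 233 among the 7704 brighter genes and 2231 and 1856 with the local background subtracted, which was the one setting with more higher than lower genes. A limit on negative control spots gave 245 higher and 693 lower genes. At least 2-fold by the bound among genes on 1 array only, in place of 137 higher genes, were 25 with the negative control limit and 55 with the untrimmed blank level. For the shares on day 11 the brighter genes are those that were so by the signals of both days, 183 higher and 202 lower. The share of higher genes of day 5 that were higher on day 11 was 57.6% with the local background, 83.7% with quantile normalization, 92.9% among the brighter genes, 90.8% with the pseudocount, 91.3% with the untrimmed blank level and 83.5% with the lowess curve. The share of lower genes was 88.9% with normexp, 54.1% with the local background, 88.8% with the negative control limit, 88.6% among the brighter genes and 88.3% with the pseudocount. The cause was not tested, except that a pseudocount or offset shrinks the ratios of dim genes by construction and the brighter genes are fewer. Of the 30 leading genes, 28 were measured with the local background, all 28 in the same direction and 26 at least 2-fold apart. Their direction after normexp and in the brighter genes was fixed by their choice, and settings that shift all ratios by a small constant could not turn it. The log2 ratios over all settings were 3.15 to 5.996 for ENSRNOG00000000545, 5.43 to 6.83 for ENSRNOG00000022282, -7.84 to -4.80 for ENSRNOG00000030093 and -7.48 to -4.58 for ENSRNOG00000008394. No paired analysis was possible because each group is 1 array. The fixed gene lists, and so their alternatives, were not run because no ID could be paired with a symbol.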
